A study of Mus musculus with 8 samples.

Results

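Genes of the peroxisome proliferator-activated receptors (PPARs), of fatty acid oxidation, and of ketone body metabolism were compared in colonic epithelial cells of mice that carried 1 of 2 strains of Bacteroides thetaiotaomicron (B. theta). The members were chosen by name as PPARs and their coactivator, PPAR targets, lipid droplet coats, fatty acid binding and activating proteins, the carnitine shuttle, the β-oxidation spiral, and the enzymes of ketone bodies. Of 36 members, 35 had a probe set annotated to that gene alone, out of 18193 such genes on the array, and 1 member was not analysed here. The samples were 4 mice colonized with wild-type B. theta (BTWT) and 4 mice colonized with a mutant that lacks the MAFF locus (BTΔMAFF, spelled BTDMAFF in the labels), with 1 Affymetrix array per mouse. All 8 were male specific pathogen-free C57BL/6 mice that had received the antibiotics metronidazole and ciprofloxacin, were colonized at 8 wk of age, and were sampled at 12 wk, 4 wk after colonization. The mice were not germ-free, so each strain joined what the antibiotics had left of the microbiota, and neither group was free of B. theta. Living EpCAM+ CD45- cells were sorted from the colon, and such a sort pools absorptive, goblet, and crypt cells. Fewer cells of a type and less RNA per cell cannot be told apart in these arrays.

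PPARα, PPARδ, and PPARγ are nuclear receptors that bind fatty acids and, as partners of the retinoid X receptor, switch on genes for lipid uptake, storage, and breakdown. The coactivator PGC-1α, encoded by Ppargc1a, joins these receptors and raises mitochondrial gene expression. Colonocytes draw much of their energy from butyrate and other fatty acids that bacteria release, which they oxidize in mitochondria by the β-oxidation spiral, and part of the acetyl-CoA can leave as ketone bodies.

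The authors deposited log2 values from which the median of the 8 arrays had been subtracted for each probe set, and these are called centred log2 values here. They hold differences between mice and no level, so levels of different genes cannot be ranked and detection is unknown. Differences are given as BTWT minus BTΔMAFF on this scale, with the standard error (SE), from limma fitted to all 45037 probe sets. Of the 18193 genes, 0 passed an adjusted p of 0.05 in limma or in the methods' t-test, and 1040 (5.72%) had an unadjusted p under 0.05 in limma. The arrays of BTWT replicate 2 and BTΔMAFF replicate 4 lay far from the other 6 on principal component 1 (29.4% of the variance). Markers of intestinal epithelium (8 of 8 measured) had list means from -0.12 to -0.03 in BTWT and from 0.01 to 0.11 in BTΔMAFF, with Krt19 and Vil1 lower at an unadjusted p under 0.05. The adipocyte markers, of interest because adipocytes use the same lipid genes, had 4 of 6 genes measured, list means from -0.01 to 0.07 and from -0.03 to 0.04, and 0 at an unadjusted p under 0.05. For leukocytes (9 of 10 measured), endothelium (4 of 4), and fibroblasts (6 of 6), 0 markers reached it either. The fibroblast list nevertheless had a median difference of -0.57, with 2 genes positive and 4 negative. Its list means ran from -0.49 to 0.41 in BTWT and from 0.00 to 1.20 in BTΔMAFF, the highest in BTΔMAFF replicate 2. Its collagen gene Col3a1 had the most negative difference, -1.14 (SE 0.49), and the other probe set of Col3a1 gave 0.02. Of 9 surface colonocyte markers, Slc26a3 (-0.48, SE 0.08) and Krt20 (-0.32, SE 0.10) were lower and Ceacam20 (0.38, SE 0.16) was higher in BTWT by this rule, with list means from -0.14 to 0.15 in BTWT and from -0.12 to 0.08 in BTΔMAFF. Of 7 goblet cell markers, Clca1 (-0.90, SE 0.26) and Fcgbp (-0.67, SE 0.14) were lower and Agr2 (0.55, SE 0.19) was higher, with list means from -0.26 to 0.16 and from 0.03 to 0.26. The groups did not overlap for these 4 lower markers. The part of any of these cells in the results was not tested.

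Relative to BTΔMAFF mice, BTWT mice had more Ppargc1a transcript and less of Ppara and Plin2, each with an unadjusted p under 0.05 in limma and in each of 18 alternatives. Pdk4 was higher in BTWT by a margin that depended on single mice. On the probe sets of largest SD, 0 of the 19 mitochondrial enzymes and carriers reached this threshold in limma. In all, 2 of 35 members (5.71%) were higher, 2 (5.71%) were lower, and 31 reached neither side. Among all 18193 genes, 2.35% were higher and 3.37% were lower by the same rule. Adjusted over all probe sets, 0 members passed with limma and 0 with the methods' t-test. The groups did not overlap for 2 members (5.71%), Ppargc1a and Plin2, against 3.14% of all genes (1.30% higher and 1.84% lower). The members had 64 probe sets in all, of which 14 reached an unadjusted p under 0.05 in limma, against 5.10% of all probe sets. Of these 14, 5 were of Ppargc1a, 3 of Ppara, and 2 of Acsl3. Probe sets of 1 gene in the same mice are not independent, so the 14 do not stand for as many genes. Differences were positive for 25 members and negative for 10, which is 71.4% positive against 66.8% of all genes. The median difference was 0.11 over the members and 0.02 over all genes. The members were also more variable, as 30 of 35 lay at or above the median SD of all probe sets. Their median absolute difference was 0.16 against 0.07 over all genes, and their median SE was 0.18 against 0.13. The part of this variability in the shares and medians above was not tested.

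**Figure D1:**
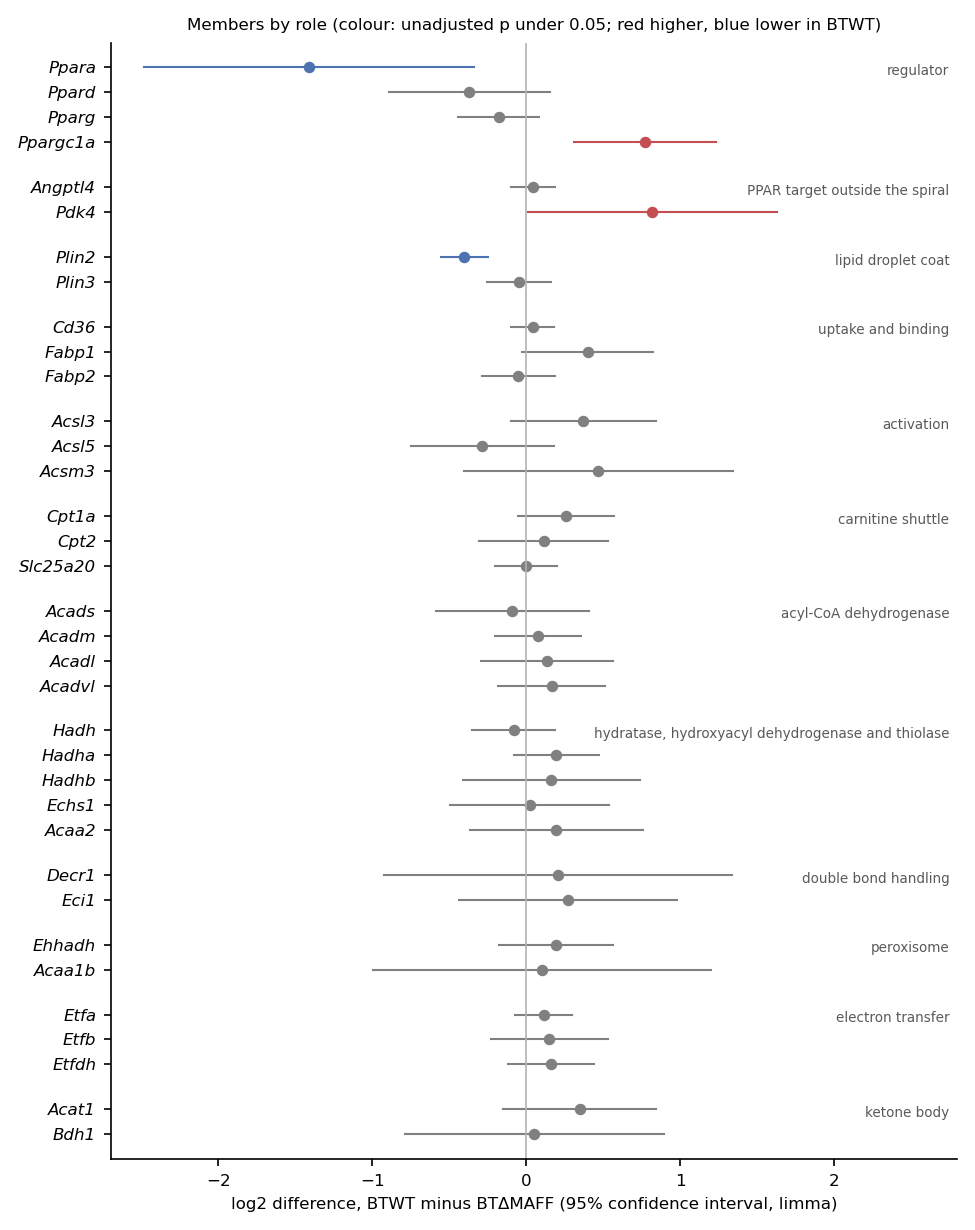
Difference between BTWT and BTΔMAFF (log2, horizontal axis) for the 35 members in order of role, with points for the limma estimate and lines for its 95% confidence interval. The unadjusted p was under 0.05 for Ppargc1a and Pdk4 in red (higher in BTWT) and Ppara and Plin2 in blue (lower in BTWT), while the intervals of the other 31 members crossed 0.

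Ppara, which encodes the receptor that turns on fatty acid oxidation in fasting, had centred log2 values of -0.04, -1.03, -0.36, and 0.04 in BTWT replicates 1 to 4. In BTΔMAFF replicates 1 to 4 it had 1.07, 1.43, 1.88, and -0.12. The BTΔMAFF mice 1 to 3 lay above every BTWT mouse, and replicate 4 lay among the BTWT mice. The group means were -0.35 ± 0.48 (SD, n = 4) and 1.07 ± 0.86 (SD, n = 4), a difference of -1.41 (SE 0.46, 95% confidence interval from -2.49 to -0.34), or 2.66-fold lower in BTWT. It had an unadjusted p of 0.0172 and an adjusted p of 0.782 from limma, and it was the 1 member past both a fold of 2 and an unadjusted p of 0.05, which 0.473% of all genes passed as lower. The other 2 probe sets of Ppara gave differences of -1.05 (SE 0.26) and -0.85 (SE 0.18), and in both every BTWT mouse lay below every BTΔMAFF mouse. Without single arrays the difference of the first probe set ran from -1.81 to -1.14.

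Ppara is also known as a target of the circadian clock. A list of 8 genes of the clock and its output (Dbp, Tef, Ciart, both Nr1d genes, and all 3 Per genes) had means from -1.64 to -0.69 in the BTWT mice and from 0.80 to 1.18 in the BTΔMAFF mice. In limma all 8 had an unadjusted p under 0.05 with lower values in BTWT, against 3.37% of all genes. None overlapped between groups, against 1.84% of all genes that were separate and lower. Their adjusted p-values from limma ran from 0.141 to 0.567. The list was chosen with earlier results of these data known, so these counts are not independent evidence. The hour of sampling is not given in the sources used here, and the part of the clock genes in the difference of Ppara was not tested.

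Ppargc1a moved opposite to Ppara. Its centred log2 values were 0.03, 0.21, 0.30, and 0.21 in BTWT and -0.84, -0.92, -0.56, and -0.03 in BTΔMAFF, in the order of the replicates. The lowest BTWT mouse exceeded the highest BTΔMAFF mouse, by a narrow margin between BTWT replicate 1 and BTΔMAFF replicate 4. The means were 0.19 ± 0.12 (SD, n = 4) and -0.59 ± 0.40 (SD, n = 4), a difference of 0.77 (SE 0.20, 95% confidence interval from 0.31 to 1.24), or 1.71-fold higher in BTWT, with an unadjusted p of 0.00535 and an adjusted p of 0.550 from limma. All 5 probe sets of Ppargc1a were higher in BTWT with no overlap between groups, at differences from 0.59 to 0.77 and unadjusted p from 8.02e-05 to 0.00665 (groups were separate in 2.83% of all probe sets). The smallest of their adjusted p-values was 0.141.

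Ppard, which encodes the PPAR found in most tissues, had -0.44, 0.37, -0.08, and -0.20 in BTWT and -0.03, 0.03, 0.49, and 0.64 in BTΔMAFF. The groups overlapped, and the difference of -0.37 (SE 0.22) had an unadjusted p of 0.139 from limma. Without BTWT replicate 2, the highest of its group, the difference was -0.52 with an unadjusted p of 0.0384. The limma p of Ppard was not under 0.05 without any other single array, and reached up to 0.313. Pparg, best known from fat cells but also present in colonocytes, had 0.07, -0.01, -0.12, and -0.23 in BTWT and 0.24, 0.01, 0.30, and -0.12 in BTΔMAFF. Its groups overlapped too, with a difference of -0.18 (SE 0.11) and an unadjusted p of 0.149, which became -0.26 and 0.0422 without BTΔMAFF replicate 4. The limma p of Pparg was not under 0.05 without any other single array, and reached up to 0.332. All 3 receptor genes thus had negative differences, and only that of Ppara reached an unadjusted p under 0.05.

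**Figure D2:**
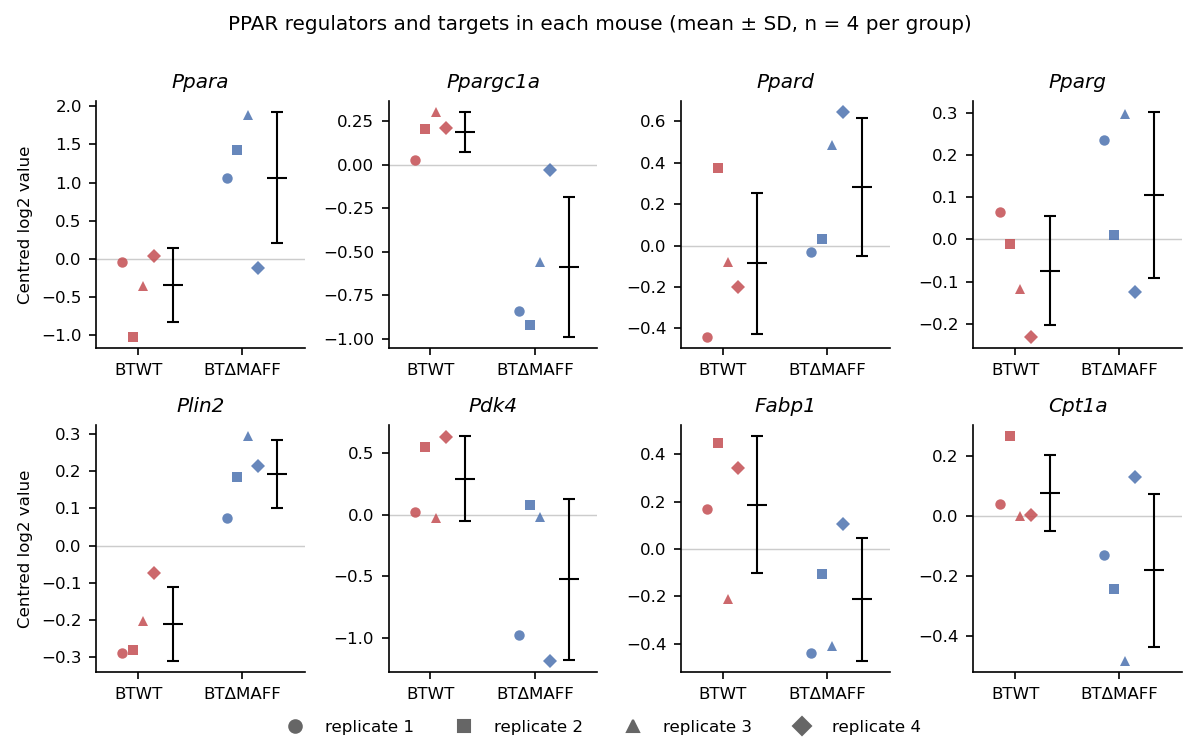
Centred log2 values of 8 members (vertical axis) in the BTWT mice in red and the BTΔMAFF mice in blue, with 1 symbol per replicate number and the mean ± SD of 4 mice beside them. The groups are separate for Ppargc1a and Plin2, and for Ppara BTΔMAFF replicate 4, at -0.12, lies among the BTWT mice.

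**Figure D3:**
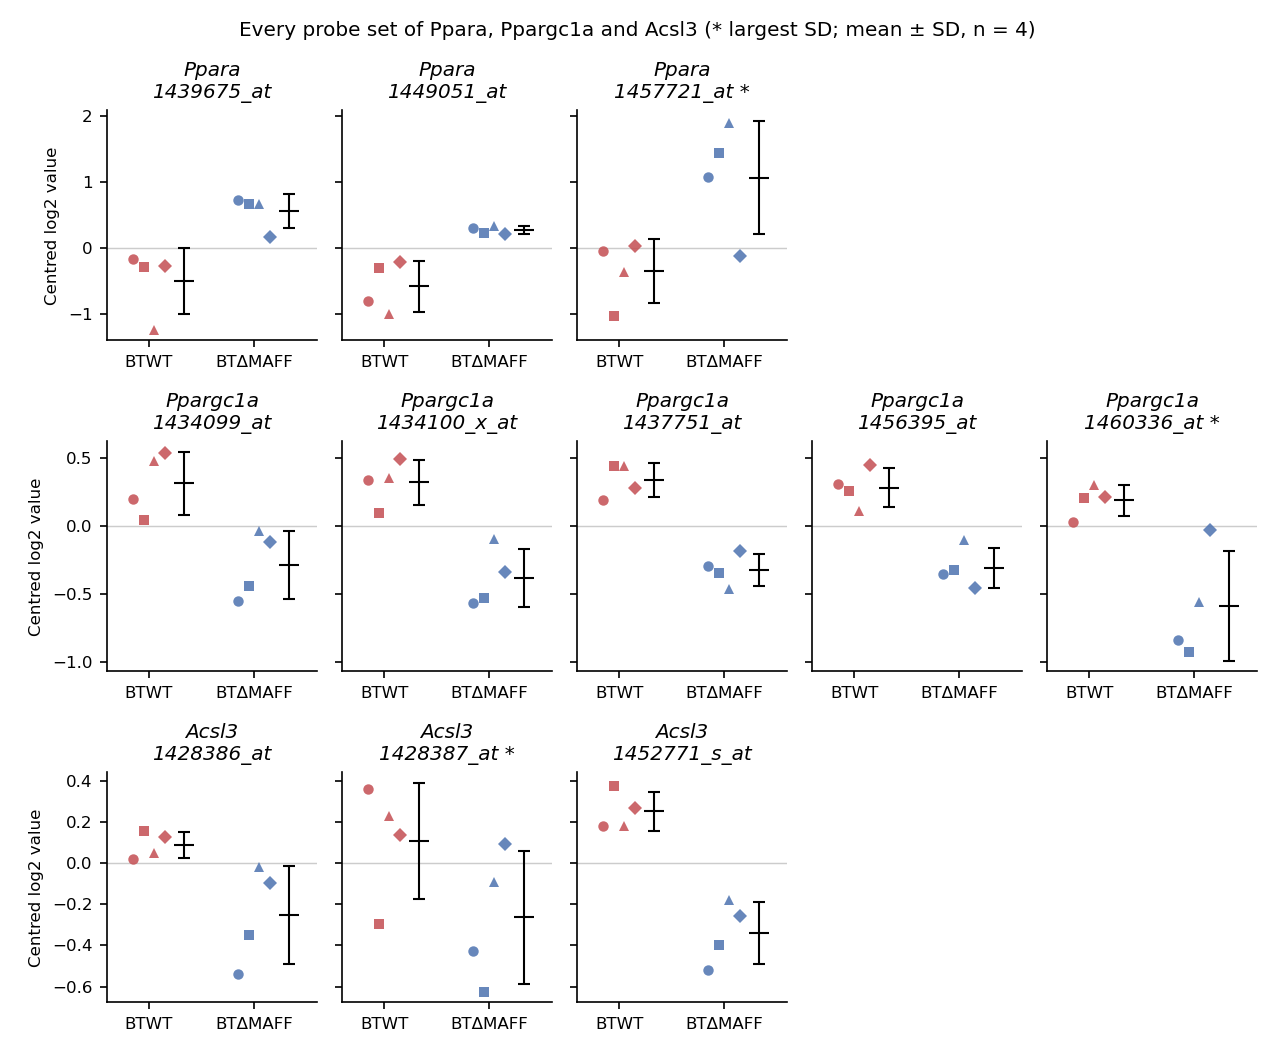
Centred log2 values (vertical axis) of every probe set of Ppara, Ppargc1a, and Acsl3, with BTWT in red, BTΔMAFF in blue, and the mean ± SD of 4 mice beside them. The asterisk marks the probe set with the largest SD, which stood for the gene; groups are separate in 2 of 3 probe sets for Ppara, in 5 of 5 for Ppargc1a, and in 2 of 3 for Acsl3.

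Plin2 coats lipid droplets and is a classical PPAR target whose product follows the amount of stored fat. Its centred log2 values were -0.29, -0.28, -0.20, and -0.07 in BTWT and 0.07, 0.18, 0.29, and 0.21 in BTΔMAFF. Every BTWT mouse lay below every BTΔMAFF mouse. With means of -0.21 ± 0.10 (SD, n = 4) and 0.19 ± 0.09 (SD, n = 4), the difference was -0.40 (SE 0.06, 95% confidence interval from -0.55 to -0.25), or 1.32-fold lower in BTWT. Its unadjusted p of 0.000441 was the smallest of the members, and the adjusted p was 0.232 from limma. Plin3, a coat protein of nascent droplets, had a difference of -0.05 (SE 0.09), with values from -0.01 to 0.07 in BTWT and from -0.08 to 0.33 in BTΔMAFF.

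Pdk4 encodes a kinase that inhibits pyruvate dehydrogenase when fat is burned. It had 0.02, 0.55, -0.03, and 0.63 in BTWT and -0.98, 0.08, -0.02, and -1.19 in BTΔMAFF. The groups overlapped, as the BTΔMAFF replicates 2 and 3 lay beside the BTWT replicates 1 and 3. The difference was 0.82 (SE 0.34, 95% confidence interval from 0.01 to 1.63), or 1.77-fold higher in BTWT, with an unadjusted p of 0.0472 and an adjusted p of 0.828 from limma. The unadjusted p was 0.0213 without BTΔMAFF replicate 2 and 0.0314 without BTΔMAFF replicate 3, and it lay between 0.0502 and 0.114 without any other single array. With arrays weighted by their quality, the difference was 0.26. Angptl4, a secreted inhibitor of lipoprotein lipase that PPARs induce, had 0.07, 0.15, 0.02, and -0.02 in BTWT and -0.05, -0.03, -0.05, and 0.16 in BTΔMAFF. Its difference was 0.04 (SE 0.06, 95% confidence interval from -0.10 to 0.19). The Angptl4 values were highest in BTWT replicate 2 and BTΔMAFF replicate 4, whose array medians over all probe sets were also the highest (0.04 each). The part of such array-wide shifts in the Angptl4 values was not tested. As detection is unknown, the small difference of Angptl4 cannot be read as a target that stayed unchanged. The classical targets Plin2 and Pdk4 had differences of opposite sign. A second probe set of Angptl4 gave 0.07 with an unadjusted p of 0.0318 and overlapping groups.

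The promoters of genes described so far, and of the pair Hadha and Hadhb below, are shown so that the motifs searched can be seen beside the start of transcription. The sequences are those of RefSeq on GRCm38.p6, from 200 bases before to 10 bases after the start of transcription, read along the gene. Capitals mark the first transcribed base and matches to a motif. Ppara lies on the plus strand at chr15:85735576-85735785, Ppargc1a on the minus strand at chr5:51567716-51567925, Plin2 on the minus strand at chr4:86670050-86670259, and Fabp1 on the plus strand at chr6:71199679-71199888.
Ppara: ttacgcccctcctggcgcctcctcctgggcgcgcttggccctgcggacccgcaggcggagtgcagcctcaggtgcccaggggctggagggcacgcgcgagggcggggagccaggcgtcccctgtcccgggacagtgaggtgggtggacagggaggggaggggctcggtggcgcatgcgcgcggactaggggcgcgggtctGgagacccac
Ppargc1a: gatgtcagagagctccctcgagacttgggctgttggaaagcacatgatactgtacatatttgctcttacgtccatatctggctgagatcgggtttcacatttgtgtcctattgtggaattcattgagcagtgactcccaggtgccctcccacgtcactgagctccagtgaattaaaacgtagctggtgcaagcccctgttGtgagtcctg
Plin2: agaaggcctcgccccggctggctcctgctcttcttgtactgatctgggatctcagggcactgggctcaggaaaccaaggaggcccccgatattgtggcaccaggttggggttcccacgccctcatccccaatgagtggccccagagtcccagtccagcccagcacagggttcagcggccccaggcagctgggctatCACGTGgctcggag
Fabp1: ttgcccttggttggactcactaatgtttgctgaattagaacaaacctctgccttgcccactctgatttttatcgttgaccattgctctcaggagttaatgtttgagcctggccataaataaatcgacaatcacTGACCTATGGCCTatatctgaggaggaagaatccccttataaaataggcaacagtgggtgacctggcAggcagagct

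PPARs with their partner bind the letters AGGTCA as a direct repeat with 1 free base between its copies, and clock factors bind the E-box CACGTG. Both were searched on both strands, from 250 bases before to 50 after the start, in 36 promoters of 32 members and in all 32851 promoters of the table. The strict repeat was in 0 member promoters and in 0.0396% of all promoters. With AGGNCA in its place, where N is any base, it matched 1 member, Fabp1, as TGACCTATGGCCT on the opposite strand from base -67 to -55, and 0.381% of all promoters. The E-box was in 1 member promoter, that of Plin2, from base -4 to 2 (the start is base 1), and in 7.15% of all promoters. A match describes letters in this window only.

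The genes of fatty acid uptake and binding did not differ at an unadjusted p under 0.05. Fabp1, the liver-type fatty acid binding protein that carries ligands to PPARα, came closest, with 0.17, 0.45, -0.21, and 0.34 in BTWT and -0.44, -0.11, -0.41, and 0.11 in BTΔMAFF. Only BTWT replicate 3 lay inside the range of the other group, and BTΔMAFF replicate 4 was the highest of its own. The difference was 0.40 (SE 0.18, 95% confidence interval from -0.03 to 0.83), with an unadjusted p of 0.0629 from limma. It was 0.53 without BTWT replicate 3 (unadjusted p of 0.0137) and 0.51 without BTΔMAFF replicate 4 (unadjusted p of 0.0305). The limma p of Fabp1 was not under 0.05 without any other single array, and reached up to 0.149. Fabp2, the intestinal form, had a difference of -0.05 (SE 0.10). Cd36, a fatty acid transporter of the cell surface, had one of 0.04 (SE 0.06), with values from -0.02 to 0.14 in BTWT and from -0.05 to 0.16 in BTΔMAFF. The highest values of Cd36 and of Angptl4 were in BTWT replicate 2 and BTΔMAFF replicate 4, whose array medians over all probe sets were also the highest, at 0.04 each.

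Activation couples a fatty acid to coenzyme A, and 3 genes of this step were measured. Acsl3, a ligase of long-chain fatty acids at the endoplasmic reticulum and droplets, had 0.36, -0.29, 0.23, and 0.13 in BTWT and -0.43, -0.63, -0.09, and 0.09 in BTΔMAFF on the probe set with the largest SD. Here BTWT replicate 2 lay inside the range of the BTΔMAFF mice. The difference of this probe set was 0.37 (SE 0.20), with an unadjusted p of 0.106 from limma. That p was 0.0325 without BTWT replicate 2 and 0.0475 without BTΔMAFF replicate 4. It was not under 0.05 without any other single array, and reached up to 0.242. On the other probe sets of Acsl3 the groups did not overlap, with differences of 0.34 (SE 0.12, unadjusted p of 0.0218) and 0.59 (SE 0.08, unadjusted p of 0.000207, adjusted p of 0.178 from limma). The mean of all 3 gave 0.43 with an unadjusted p of 0.0045.

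Acsl5, the ligase typical of enterocyte mitochondria, had -0.01, -0.63, 0.01, and -0.22 in BTWT and 0.25, 0.28, 0.12, and -0.37 in BTΔMAFF. Except for BTΔMAFF replicate 4 every mouse of that group lay above the BTWT mice. The difference was -0.28 (SE 0.20, unadjusted p of 0.189 from limma), and without BTΔMAFF replicate 4 it was -0.43 with an unadjusted p of 0.0419. That p was not under 0.05 without any other single array, and reached up to 0.429. Acsm3, a ligase of medium-chain fatty acids, had a difference of 0.47 (SE 0.37), with values from -0.25 to 0.43 in BTWT and from -1.32 to 0.34 in BTΔMAFF.

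Fatty acids enter the mitochondrion through the carnitine shuttle, are shortened by the β-oxidation spiral, and pass their electrons on through the electron transfer flavoprotein. The 19 mitochondrial members, the ketone enzymes included, are given here by their probe sets of largest SD. On these, 0 reached an unadjusted p under 0.05 from limma, and the smallest p was 0.0936. Their differences ran from -0.09 to 0.35 with a median of 0.15, and 16 were positive and 3 negative. For 18 of 19 the 95% confidence interval stayed within a 2-fold change in either direction, and for 12 within a 1.5-fold change. The exception to the first was Decr1, whose interval reached 1.34.

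Cpt1a, the carnitine acyltransferase that sets the rate of entry and a PPARα target, had 0.04, 0.26, -0.00, and 0.00 in BTWT and -0.13, -0.24, -0.48, and 0.13 in BTΔMAFF. BTΔMAFF replicate 4 alone of its group reached the BTWT mice. The difference was 0.26 (SE 0.13, 95% confidence interval from -0.06 to 0.57), with an unadjusted p of 0.0936 from limma. Without BTΔMAFF replicate 4 it was 0.36 with an unadjusted p of 0.0156. Without single arrays the difference fell as low as 0.16. The p was not under 0.05 without any other single array, and reached up to 0.211. Cpt2, the inner membrane acyltransferase, and Slc25a20, the carnitine carrier, had differences of 0.11 (SE 0.18) and -0.00 (SE 0.09). The acyl-CoA dehydrogenases, which open each turn of the spiral and differ in the chain length they accept, lay close together. Their differences were 0.16 (SE 0.15) for Acadvl, 0.14 (SE 0.18) for Acadl, 0.08 (SE 0.12) for Acadm, and -0.09 (SE 0.21) for Acads, the dehydrogenase of butyrate.

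Hadha and Hadhb encode the α and β subunits of the trifunctional protein, which carries out the remaining steps on long chains. In RefSeq their starts lie 272 bases apart and point away from each other, so they share a promoter at chr5:30154980-30155253, shown along the plus strand with the first transcribed base of Hadha (left, read on the minus strand) and of Hadhb (right) in capitals.
Hadha and Hadhb: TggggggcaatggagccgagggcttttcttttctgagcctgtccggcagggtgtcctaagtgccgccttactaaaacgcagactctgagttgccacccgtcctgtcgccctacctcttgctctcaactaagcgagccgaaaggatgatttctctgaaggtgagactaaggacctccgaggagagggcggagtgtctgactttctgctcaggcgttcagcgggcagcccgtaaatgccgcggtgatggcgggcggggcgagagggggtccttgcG

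Hadha had 0.04, 0.31, -0.16, and 0.30 in BTWT and 0.00, -0.22, -0.00, and -0.06 in BTΔMAFF. BTWT replicate 3 was low in its group. The difference was 0.20 (SE 0.12, unadjusted p of 0.137 from limma), and without BTWT replicate 3 it was 0.29 with an unadjusted p of 0.0182. That p was not under 0.05 without any other single array, and reached up to 0.302. Hadhb gave 0.16 (SE 0.24), 0.22 (SE 0.08), and 0.19 (SE 0.14) on its 3 probe sets, of which the second had an unadjusted p of 0.0288. The first, with the largest SD, owed its spread to BTWT replicate 1 at 0.97. All 4 probe sets of the pair thus had positive differences. Of the other enzymes of these steps, Acaa2, a thiolase, had a difference of 0.20 (SE 0.24), Echs1, a hydratase, one of 0.02 (SE 0.22), and Hadh, the dehydrogenase of shorter hydroxyacyl chains, one of -0.08 (SE 0.11).

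Decr1 and Eci1, which rearrange double bonds of unsaturated fatty acids, had differences of 0.21 (SE 0.48) and 0.27 (SE 0.30). Decr1 varied most among the mitochondrial genes, from -0.67 to 1.25 in BTWT and from -0.78 to 0.78 in BTΔMAFF. The electron transfer genes Etfa, Etfb, and Etfdh had 0.11 (SE 0.08), 0.15 (SE 0.16), and 0.16 (SE 0.12). Ketone body metabolism was represented by Acat1, the mitochondrial acetoacetyl-CoA thiolase, and Bdh1, which interconverts acetoacetate and β-hydroxybutyrate. Acat1 had 0.26, -0.28, 0.27, and 0.05 in BTWT and 0.09, -0.39, -0.74, and -0.05 in BTΔMAFF. The groups overlapped, at a difference of 0.35 (SE 0.21) with an unadjusted p of 0.141 from limma. Bdh1 had a difference of 0.05 (SE 0.36), with values from -0.78 to 0.80 in BTWT and from -0.33 to 0.38 in BTΔMAFF. Its other probe set gave 0.42 (SE 0.20), with an unadjusted p of 0.0718 from limma and overlapping groups. In the peroxisome, Ehhadh and Acaa1b, both known as strongly induced by PPARα in liver, had differences of 0.19 (SE 0.16) and 0.10 (SE 0.46).

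The mean over the mitochondrial genes varied more from mouse to mouse than between groups. Its SD over the mice was 0.20 in each group, around group means of 0.07 in BTWT and -0.06 in BTΔMAFF. The 3 carnitine shuttle genes did not follow this, with means from -0.02 to 0.04 in BTWT and from -0.13 to -0.07 in BTΔMAFF. The mean of the 19 genes was 0.33, -0.16, 0.01, and 0.08 in the BTWT mice and 0.21, -0.11, -0.07, and -0.28 in the BTΔMAFF mice. BTWT replicate 1 and BTΔMAFF replicate 1 had the highest means, and BTΔMAFF replicate 4 and BTWT replicate 2 the lowest. BTWT replicate 1 was the highest mouse for 9 of 19 genes (47.4%, against 9.78% of all genes). BTΔMAFF replicate 4 was the lowest for 11 (57.9%, against 11.5%) and the highest for 0, although it was the highest mouse for 36.5% of all genes. Both mice with the lowest means were those whose arrays lay far out on principal component 1, and the part of array quality in these means was not tested. Crypt and dividing cells, marked by 7 of 8 measured genes, had list means from 0.02 to 0.90 in BTWT and from -0.55 to 0.19 in BTΔMAFF. The 4 division genes Mki67, Top2a, Cdk1, and Birc5 were higher in BTWT at an unadjusted p under 0.05 in limma, against 2.35% of all genes. The groups overlapped for Mki67, and the other 2 probe sets of Top2a gave differences of -0.05 and 0.01. The crypt base genes Lgr5 (-0.12, SE 0.18), Ascl2 (0.53, SE 0.55), and Axin2 (0.64, SE 0.41) did not reach an unadjusted p under 0.05.

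**Figure D4:**
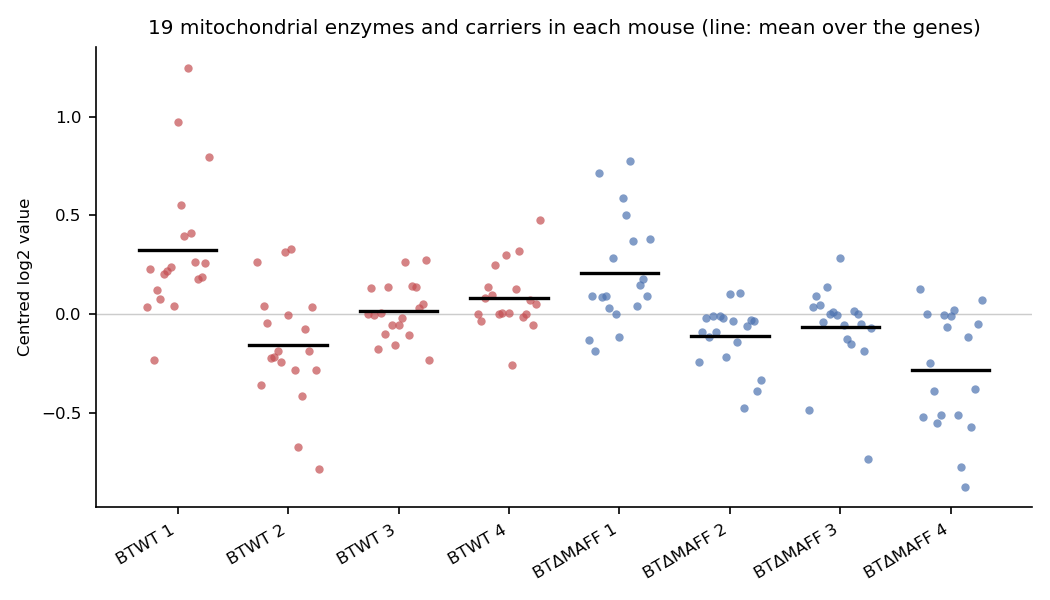
Centred log2 values (vertical axis) of the 19 mitochondrial members in each of the 8 mice (horizontal axis), with 1 point per gene and a black line at the mean of the mouse. The lines range from -0.16 to 0.33 in BTWT and from -0.28 to 0.21 in BTΔMAFF, and the 2 groups overlap.

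Other genes of these pathways, from a list of 81 that are not members, were measured for 71, and the other 10 were not analysed here. Of the 71, an unadjusted p under 0.05 was reached by 6 (8.45%) in the higher and 3 (4.23%) in the lower direction, against 2.35% and 3.37% of all genes. None passed when adjusted in limma, 62 reached neither side, and the median difference was 0.02. The 6 higher genes were Creb3l3, Acad11, Fabp5, Acot1, Acot2, and Fabp6, and the 3 lower were Rxra, Dgat2, and Acacb.

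Among transcription factors, Creb3l3, which acts with PPARα on lipid genes in liver and intestine, had 0.47, 0.23, 0.37, and 0.36 in BTWT and -1.09, -0.23, -0.30, and -0.86 in BTΔMAFF. The groups did not overlap. The difference was 0.98 (SE 0.20), or 1.97-fold higher in BTWT, with an unadjusted p of 0.00179 and an adjusted p of 0.384 from limma. Rxra, which encodes the retinoid X receptor that PPARs need as a partner, had -0.09, -0.46, -0.04, and -0.10 in BTWT and 0.44, 0.21, 0.46, and 0.04 in BTΔMAFF. Its groups did not overlap either, and the difference was -0.46 (SE 0.13), with an unadjusted p of 0.00996. Both genes kept an unadjusted p under 0.05 in each of 18 alternatives. The other probe sets of Rxra gave -0.35 and 0.02.

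The acyl-CoA thioesterases Acot1 and Acot2, near-identical neighbours that release free fatty acids and are PPARα targets, had differences of 0.95 (SE 0.33) and 0.61 (SE 0.22). In both the groups were separate, but probes of such close copies may share signal. Acad11, a dehydrogenase of very long and hydroxylated chains, had a difference of 0.39 (SE 0.13). The binding proteins Fabp5 and Fabp6, of which Fabp6 binds bile acids in the ileum, had differences of 0.94 (SE 0.33) and 1.13 (SE 0.44). With arrays weighted by their quality, the difference of Fabp6 was 0.34. Of 6 small intestine markers measured, Fabp6 among them, 4 had positive and 2 negative differences, with Rbp2 at -1.29 (SE 0.18). The study listed Fabp6, and a probe set shared by Fabp5 and another gene, among its changed genes on these same arrays, so they are not independent evidence. Dgat2 and Dgat1, which encode enzymes of the last step of triglyceride synthesis, had differences of -0.73 (SE 0.26) and -0.64 (SE 0.29), the latter with an unadjusted p of 0.0638 from limma. Acacb, whose product malonyl-CoA restrains Cpt1a, had one of -0.38 (SE 0.16), and its other probe set had the opposite sign.

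Single arrays decided several of these. The unadjusted p of Fabp5 was 0.0504 without BTΔMAFF replicate 2 and 0.061 without BTΔMAFF replicate 3, and that of Acot1 was 0.063 and 0.0526. Acot2 had 0.0612, 0.0558, and 0.0528 without BTWT replicates 1, 2, and 4. Dgat2 had between 0.0556 and 0.0683 without BTWT replicates 1, 2, or 3 or BTΔMAFF replicates 2 or 3. Fabp6 had between 0.0578 and 0.0941 without BTWT replicates 1, 2, or 4 or BTΔMAFF replicates 1 or 4, and Acacb between 0.0517 and 0.114 without any array but BTWT replicates 3 or 4. Dgat1 had 0.00859 without BTΔMAFF replicate 4.

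**Figure D5:**
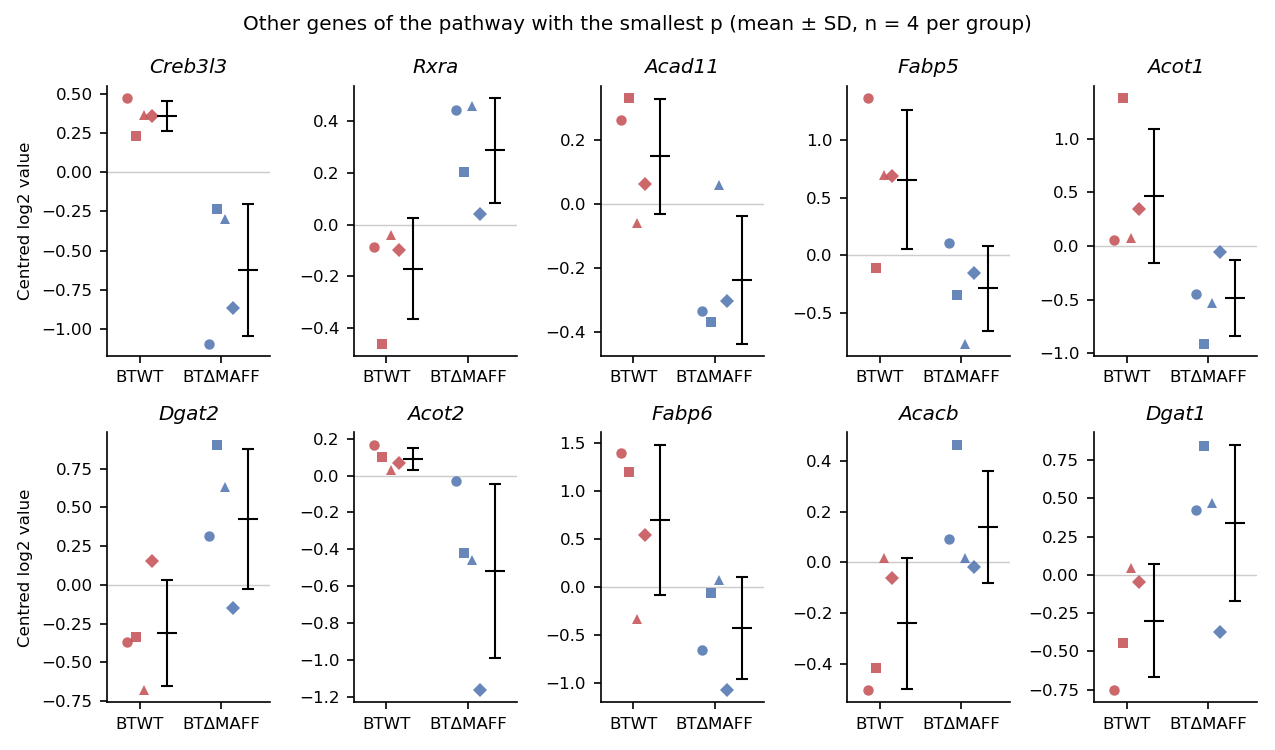
Centred log2 values (vertical axis) of the 10 pathway genes with the smallest unadjusted p that are not members, with BTWT in red, BTΔMAFF in blue, and the mean ± SD of 4 mice beside them. The groups are separate for Creb3l3, Rxra, Acot1, and Acot2.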

How the data were processed

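RNA of the sorted cells of 4 mice with BTWT and 4 with BTΔMAFF was amplified by the authors and hybridized to Affymetrix mouse genome arrays, 1 per mouse, and the labels do not say whether the mice of a group shared a cage. The authors deposited log2 values centred on the median of the 8 arrays for each of 45101 probe sets. GeneSpring 12.5 is named in their methods and Affymetrix Expression Console in the submitters' processing notes. How background was corrected and arrays were normalized is not given in the sources used here.

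After 64 Affymetrix controls were left out, limma 3.58.1 (R 4.3.3) was fitted to 45037 probe sets (lmFit, eBayes, no covariate, Benjamini-Hochberg adjustment, threshold 0.05). Of these, 34945 have 1 gene in the array annotation, 932 several, and 9160 none. A gene was represented by its probe set of largest SD across the 8 arrays. The procedure was tested on simulated data. Precision is limited by the number of arrays. The members and lists were chosen with earlier results of these data known. All members were named, with values in every mouse for regulators, the usual PPAR readouts, and up to 12 members of smallest p, and 10 of the other pathway genes were named by smallest p. Some genes are not reported here.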

Additional observations from a re-analysis of the deposited data

Results flagged for a closer look

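In 4 of 54 groups of 4 mice, 1 mouse lay farther from the others than Dixon's 95% limit for such a gap, and chance alone gives about 1 in 20. Cpt1a was 0.26 in BTWT replicate 2, with the nearest other BTWT mouse at 0.04 on the centred log2 scale. Angptl4 was 0.16 in BTΔMAFF replicate 4, with the nearest mouse of its group at -0.03. These mice gave the 2 arrays that stood apart. Rxra was -0.46 in BTWT replicate 2, with the nearest mouse at -0.10. Acad11 was 0.060 in BTΔMAFF replicate 3, with the nearest mouse at -0.30.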

How the results depend on the processing

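Across 18 alternatives, Plin2, Ppargc1a, and Ppara kept their direction and an unadjusted p under 0.05, and Pdk4 lost it in 13. The number of members higher in BTWT at that threshold, 2 in limma, was 1 with each array centred on its median, with quantile normalization, with a robust prior, and with the methods' t-test, 8 with array weights, and 4 without BTWT replicate 2 and BTΔMAFF replicate 4, whose arrays stood apart. It ranged from 1 to 4 when single arrays were left out. The number lower, 2, was 4 with array weights and 2 to 4 without single arrays. Adjusted, 0 members passed, 0 without any single array, and 3 with array weights (Plin2, Ppargc1a, and Ppara, with adjusted p of 0.0284, 0.0155, and 0.0267), a fit in which BTWT replicate 3 and BTΔMAFF replicate 2 had weights of 4.68 and 4.36. With array weights the share of all genes past either threshold is not given here. The counts from that fit therefore cannot be read as particular to the members. The median difference of the members (0.11) fell to 0.035 when BTΔMAFF replicate 4 was left out and rose to 0.193 when BTWT replicate 2 was.

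Of the pathway genes that are not members, 6 were higher in limma, 11 with array weights, and 4 to 8 without single arrays. There were 3 lower, 17 with array weights, 5 with the mean of all probe sets of a gene, 7 without those 2 arrays, and 1 to 7 without single arrays. The counts with array weights again have no share of all genes beside them and cannot be read as particular to these genes.

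Deviations of same-numbered mice of the 2 groups from their group means had correlations from -0.27 to 0.39 over 4 pairs. Of 8 samples, 2 correlated best with their own number. With so few pairs this check cannot tell whether the numbers pair the mice, and the main fit did not pair them. With the replicate number as a block, 3 members were higher and 2 lower, of the pathway genes 3 were higher and 1 lower, and 1255 of all genes reached an unadjusted p under 0.05 against 1040. The cause of these shifts was not tested. Centred values allow no filter on dim probe sets.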
